A study of Homo sapiens with 8 samples.

Results

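The cap-binding translation initiation factors were followed after siRNA against RND3 in U87, a cell line from a human glioblastoma. RND3 is an atypical small GTPase, and the study asked what its loss does to gene expression in these cells. The 10 genes were EIF4E, EIF4E2, EIF4E3, EIF4EBP1, EIF4EBP2, EIF4G1, EIF4G2, EIF4G3, EIF4A1 and EIF4A2. They were chosen by their role in cap binding and eIF4F assembly, with earlier results of these data known. They were represented by 18 of the 42405 probes, and by 10 of the 19483 genes that could be named. All cells were reverse transfected with Lipofectamine RNAiMAX. Controls received non-silencing siRNA (siControl, NSC in the labels) and the knockdown cells received siRNA against RND3 (siRND3). The data comprised 3 siControl and 3 siRND3 arrays at 24 h and 1 siControl and 1 siRND3 array at 48 h. The study used a pair of oligonucleotides against RND3, and which array received which was not stated. U87 is a single established line, and RNA was taken from whole cultures, so fewer cells of one state and less RNA per cell cannot be told apart. Nothing stated that replicates came from separate transfections, so p-values measure only the spread between these samples, which may be technical.

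Most eukaryotic mRNAs are recruited to the ribosome through the cap at their 5′ end. The eIF4F complex does this: eIF4E binds the cap, a scaffold of the eIF4G family holds the complex together, and eIF4A is an RNA helicase that unwinds the leader. The 4E-BPs (EIF4EBP1 and EIF4EBP2) occupy the eIF4G site of eIF4E and block assembly until the kinase mTORC1 phosphorylates them. The eIF4E homologue EIF4E2 (4EHP) binds caps and is known mainly as a translational repressor, and EIF4G2 (DAP5) is an eIF4G relative that lacks the eIF4E site. Tumour cells, glioma included, are known for high cap-dependent translation. The arrays measured mRNA levels, not protein, phosphorylation or translation.

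The promoters of the genes that the results turn on are shown first, as the 250 bases before the transcription start, from RefSeq on GRCh38.p14. They were searched for 3 motifs on both strands: the E box CACGTG, which is the binding sequence of MYC and related factors, the GC box GGGCGG and the CCAAT box CCAAT. Bases of a match are in capitals. Of the 10 genes, 9 matched an entry, all but EIF4EBP1, with 16 entries in all. EIF4E, at chr4:98929134-98929383 on the minus strand, is shown because it was the member with the largest fall. EIF4G1, at chr3:184314356-184314605 on the plus strand (the first of 3 starts), is shown because it carried the same E boxes. EIF4E2, at chr2:232550439-232550688 on the plus strand (the first of its starts), and EIF4EBP2, at chr10:70403895-70404144 on the plus strand, are the members that rose.
EIF4E: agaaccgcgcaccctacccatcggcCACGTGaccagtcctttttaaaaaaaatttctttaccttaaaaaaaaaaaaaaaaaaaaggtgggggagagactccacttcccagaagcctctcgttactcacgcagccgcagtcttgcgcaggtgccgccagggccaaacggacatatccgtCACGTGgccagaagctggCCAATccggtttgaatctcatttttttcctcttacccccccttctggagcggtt
EIF4G1: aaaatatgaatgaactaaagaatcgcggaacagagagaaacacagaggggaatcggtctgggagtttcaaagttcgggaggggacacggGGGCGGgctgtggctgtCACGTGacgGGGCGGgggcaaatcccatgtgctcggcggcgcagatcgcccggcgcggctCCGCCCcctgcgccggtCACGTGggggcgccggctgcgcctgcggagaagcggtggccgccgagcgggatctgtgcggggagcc
EIF4E2: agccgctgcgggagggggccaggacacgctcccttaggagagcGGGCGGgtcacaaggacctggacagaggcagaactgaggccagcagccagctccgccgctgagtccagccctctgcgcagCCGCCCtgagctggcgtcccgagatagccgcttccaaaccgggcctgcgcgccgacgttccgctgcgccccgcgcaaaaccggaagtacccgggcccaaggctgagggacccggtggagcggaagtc
EIF4EBP2: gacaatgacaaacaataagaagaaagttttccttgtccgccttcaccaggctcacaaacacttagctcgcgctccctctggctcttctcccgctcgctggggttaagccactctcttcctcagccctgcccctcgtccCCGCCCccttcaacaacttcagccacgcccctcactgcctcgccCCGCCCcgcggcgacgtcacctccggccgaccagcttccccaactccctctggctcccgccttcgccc

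The EIF4E window held 2 E boxes, which began 225 and 72 bases before the start, and 1 CCAAT box. The EIF4G1 window held 2 E boxes as well, which began 144 and 67 bases before the start, and 3 GC boxes. An E box was found in 2 of the 16 member entries, and in 6.34% of all 35116 promoters of the table. The windows of EIF4E2 and EIF4EBP2 held 2 GC boxes each and no E box. GC boxes were found in 42.6% and CCAAT boxes in 32% of all promoters. A match describes the letters only. MYC mRNA, whose product binds this E box, is given with the lists.

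RND3 itself serves as the check of the labels. On the log2 intensity scale used throughout, its probe (A_23_P142849) read 11.88, 11.91 and 11.90 in siControl and 10.12, 10.18 and 10.42 in siRND3 at 24 h. At 48 h it read 11.48 in siControl and 9.84 in siRND3. The levels of RND3 thus matched the labels on all 8 arrays, with 31.7% of the control level left at 24 h and 31.9% at 48 h. On every array, background was well exceeded by all 7 U87 markers examined (VIM, CD44, FN1, SPARC, TNC, CAV1 and ANXA1). Among 7 markers of other cell types, CDH1 and RBFOX3 were above background on 0 arrays, while EPCAM, PTPRC, PECAM1, CDH5 and MBP each had a probe above background on 8 arrays. These probes averaged between 4.79 (MBP) and 7.07 (CDH5) in siControl at 24 h. Other probes of MBP (0 arrays each), PTPRC (0 and 1) and PECAM1 (3 and 7) did not reach 8 arrays. The summed level of the 7 markers of other cell types, relative to the mean of siControl at 24 h, lay between 0.941 and 1.08 in siControl and between 0.982 and 1.09 in siRND3 at 24 h. The corresponding sums for the U87 markers were 0.967 to 1.04 and 0.845 to 0.977. At 48 h the U87 sum was 0.953 in siControl and 0.758 in siRND3, and the other sum 1.09 and 1.08. Linear intensities were summed, so the brightest genes weigh most. All arrays shared 1 slide, with siRND3 in row 1 and siControl in row 2, so an effect of position in these rows and an effect of treatment cannot be told apart.

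At 24 h, EIF4E mRNA was lower and EIF4E2 and EIF4EBP2 mRNA were higher in siRND3 cells, whereas no scaffold or helicase passed the test. All but the EIF4E3 probe cleared the background filter (3 of 3 arrays above background in siControl or in siRND3 at 24 h), which left 17 probes to test. With limma and Benjamini-Hochberg adjustment over all 28759 probes tested, 5 of the 17 passed 0.05, against 11.6% of all probes. The 3 that fell were the 3 probes of EIF4E, and 6.38% of all probes fell. The 2 that rose were 1 of 2 probes of EIF4E2 and 1 of 2 probes of EIF4EBP2, and 5.27% of all probes rose. Counted by gene, 1 of 9 tested members fell and 2 rose, while 9.26% of the 14805 tested genes fell and 7.16% rose. When any 1 siControl array was left out, only the EIF4E probe for NM_001130679 passed, and without siRND3 replicate 1, 2 and 3 the count of 5 became 4, 3 and 2.

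**Figure D1:**
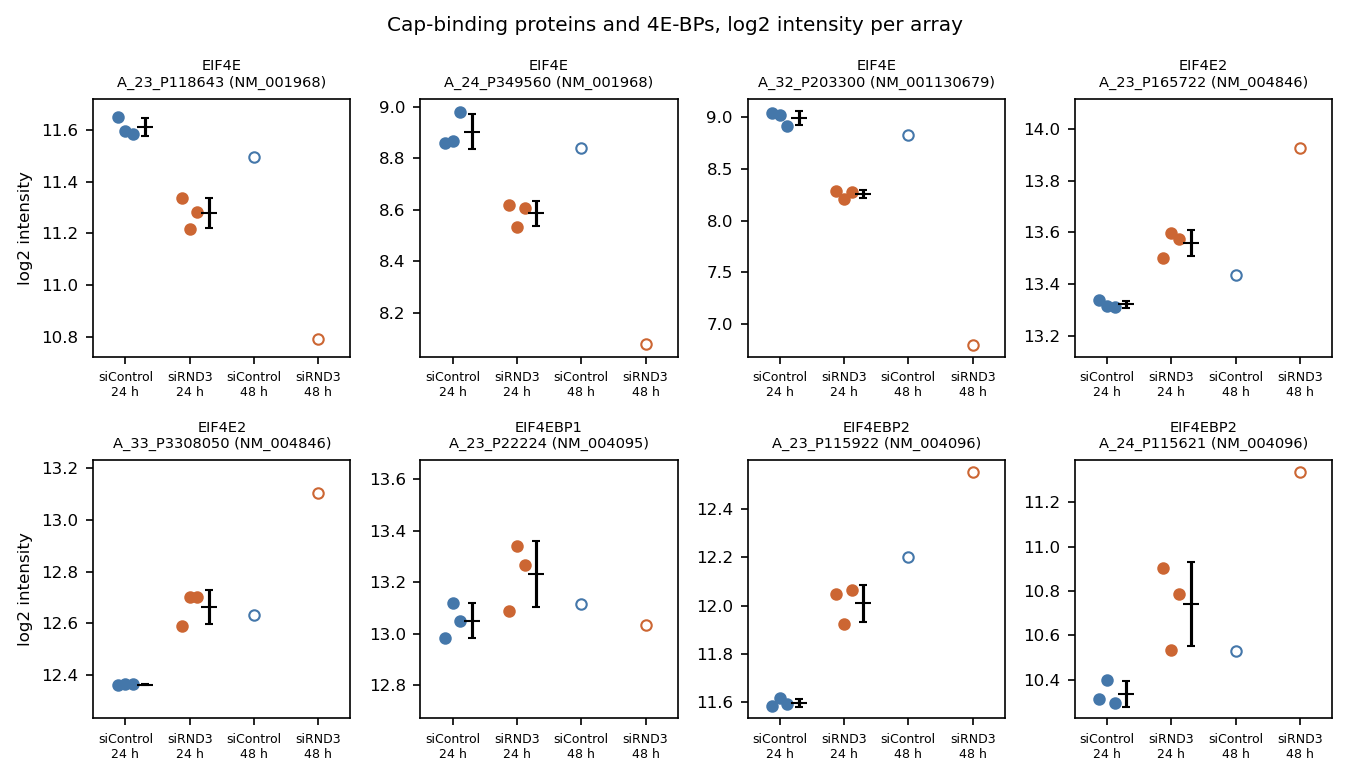
Log2 intensity (vertical axis, a separate range for each probe) of the cap-binding proteins EIF4E and EIF4E2 and of EIF4EBP1 and EIF4EBP2 on each array, with filled points for 24 h, open points for 48 h, blue for siControl, orange for siRND3, and the black bar for the mean ± SD of 3 arrays. The 3 EIF4E probes lay lower in every siRND3 array than in any siControl array at 24 h, while those of EIF4E2 and EIF4EBP2 lay higher.

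EIF4E, the cap-binding protein, was measured by 3 probes, of which A_23_P118643 and A_24_P349560 are annotated to transcript NM_001968 and A_32_P203300 to NM_001130679. Probe A_23_P118643 read 11.65, 11.60 and 11.59 in siControl and 11.34, 11.22 and 11.28 in siRND3. The groups did not overlap, and the difference was -0.33 (SE 0.07, adjusted p = 0.032), or 79.4% of the control level. Probe A_24_P349560 read 8.86, 8.87 and 8.98 in siControl against 8.62, 8.53 and 8.61 in siRND3. Its difference of -0.32 (SE 0.07, adjusted p = 0.0411) left 80.3% of the control level, so both NM_001968 probes fell by about the same amount.

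The NM_001130679 probe fell further. It read 9.04, 9.02 and 8.91 in siControl and 8.29, 8.21 and 8.28 in siRND3, a difference of -0.73 (SE 0.07, adjusted p = 0.00224, 95% interval -0.91 to -0.56) that left 60.1% of the control level. This probe passed in all 16 alternative settings, with differences between -1.06 and -0.60. Set against A_23_P118643 on the same array, it had shifted by -0.40 in siRND3 cells, and against A_24_P349560 by -0.42. Both ratios were lower on each siRND3 array than on any siControl array. The values of the single probes already fix this order, so the ratios are a description only. In these values the probes of EIF4E changed unequally, in the same direction. The transcript names are annotations and probe sequences were not examined, so whether the probes read different transcripts was not tested. With the mean of all 3 probes, EIF4E differed by -0.46 (SE 0.06, adjusted p = 0.00293 over 14805 genes).

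EIF4E2, the cap-binding homologue that does not recruit eIF4G, moved the other way. Probe A_33_P3308050 read 12.36 on each of the 3 siControl arrays and 12.59, 12.70 and 12.70 on the siRND3 arrays, a rise of 0.30 (SE 0.07, adjusted p = 0.0418) to 123% of the control level. Probe A_23_P165722 read 13.34, 13.32 and 13.31 against 13.50, 13.60 and 13.58. That difference of 0.24 (SE 0.07) did not pass (adjusted p = 0.0759), although the groups did not overlap. SAM, the test the study's methods name, did not call either EIF4E2 probe.

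EIF4E3, the third cap-binding homologue, was well above background on 1 of 8 arrays. Its readings ran from 1.37 to 4.34 and it was not tested.

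Among the repressors, EIF4EBP2 rose and EIF4EBP1 did not pass. Probe A_23_P115922 of EIF4EBP2, which was spotted 10 times per array, read 11.58, 11.62 and 11.60 in siControl and 12.05, 11.92 and 12.06 in siRND3. This was a rise of 0.41 (SE 0.07, adjusted p = 0.0175) to 133% of the control level. Probe A_24_P115621 of the same transcript read 10.32, 10.40 and 10.29 against 10.90, 10.53 and 10.79, with a difference of nearly the same size, 0.40 (SE 0.11, adjusted p = 0.0637), and a wider spread in siRND3 cells. EIF4EBP1 (A_23_P22224) read 12.98, 13.12 and 13.05 against 13.09, 13.34 and 13.27. Its groups overlapped, and the difference was 0.18 (95% interval -0.04 to 0.40, adjusted p = 0.256).

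Because eIF4E and its repressors act on each other, their ratio within each array was also taken, relative to the mean of siControl at 24 h. EIF4EBP2 over EIF4E (A_23_P115922 over A_23_P118643) stood at 0.72, 0.72 and 0.79 on the siRND3 arrays and between -0.05 and 0.03 on the siControl arrays. EIF4E2 over EIF4E stood at 0.50, 0.73 and 0.67 in siRND3 and between -0.04 and 0.03 in siControl. EIF4EBP1 over EIF4E stood at 0.31, 0.68 and 0.55 in siRND3 and between -0.11 and 0.08 in siControl. The ratios are a description, since the values of the single probes already fix the order of each between groups. Each rests on 1 probe per gene, so other probes of the same genes would give other values. These are mRNA ratios between probes and give no ratio of proteins.

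**Figure D2:**
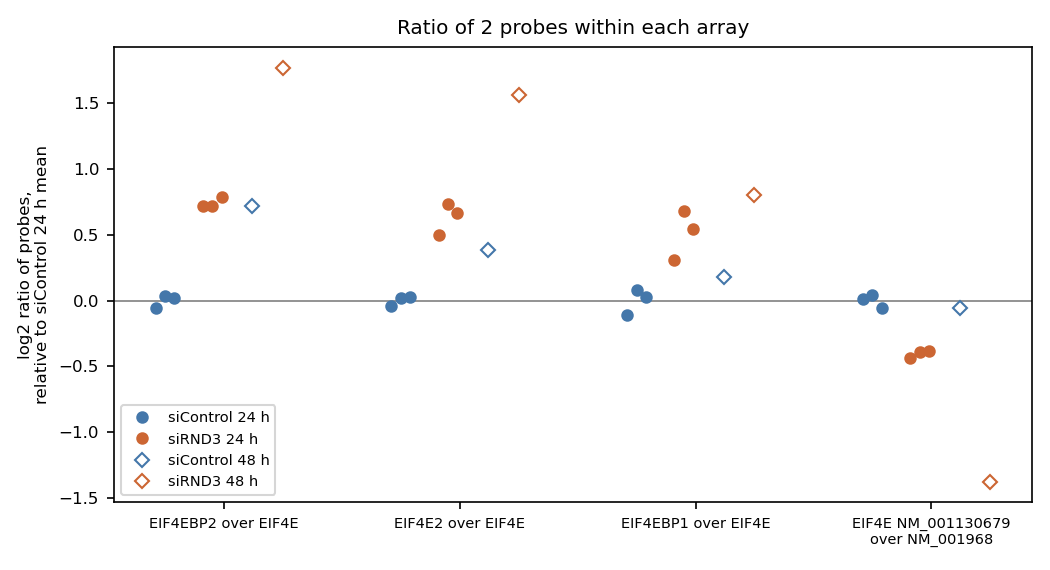
Log2 ratio of 2 probes on the same array, relative to the mean of the siControl arrays at 24 h (vertical axis), for 4 pairs of probes; blue is siControl, orange siRND3, filled circles 24 h and open diamonds 48 h. EIF4EBP2 over EIF4E was 0.72 to 0.79 in siRND3 at 24 h and 1.77 at 48 h, but also 0.72 on the siControl array at 48 h. Each ratio rests on single probes. On that siControl array the EIF4EBP2 probe used here (A_23_P115922) stood at 0.60 relative to siControl at 24 h, and the other (A_24_P115621) at 0.19.

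The scaffolds and helicases were measured by 9 probes, of which 0 passed with limma, 0 had an unadjusted p under 0.05, and 0 were called by SAM. Their differences lay between -0.22 and 0.14, and the outermost bounds of their 95% intervals were -0.50 and 0.40. EIF4G1 (A_23_P218892), the main scaffold, read 12.61, 12.37 and 12.54 in siControl and 12.47, 12.79 and 12.66 in siRND3, with a difference of 0.14 (adjusted p = 0.478). EIF4G2 differed by -0.10 (A_23_P104892, adjusted p = 0.494) and by -0.22 (A_33_P3306545, adjusted p = 0.271). EIF4G3, a second full-length scaffold, differed by -0.21 (A_23_P126241, adjusted p = 0.191) and by -0.17 (A_24_P383850, adjusted p = 0.328). The signs of these genes were mixed.

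The helicase probes did not pass either. EIF4A1 had 3 probes, with differences of 0.11 (A_23_P137103), 0.04 (A_32_P135902) and -0.09 (A_32_P149432). EIF4A2, its close relative, read 12.06, 11.89 and 12.02 in siControl and 11.92, 11.92 and 12.07 in siRND3 (A_23_P121250), a difference of -0.02 (95% interval -0.22 to 0.18, adjusted p = 0.905) that turned to 0.015 with arrays scaled to their 75th percentile. Over all 17 member probes, 9 had groups that did not overlap, 5 with siRND3 below and 4 above, against 34.4% of all probes.

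**Figure D3:**
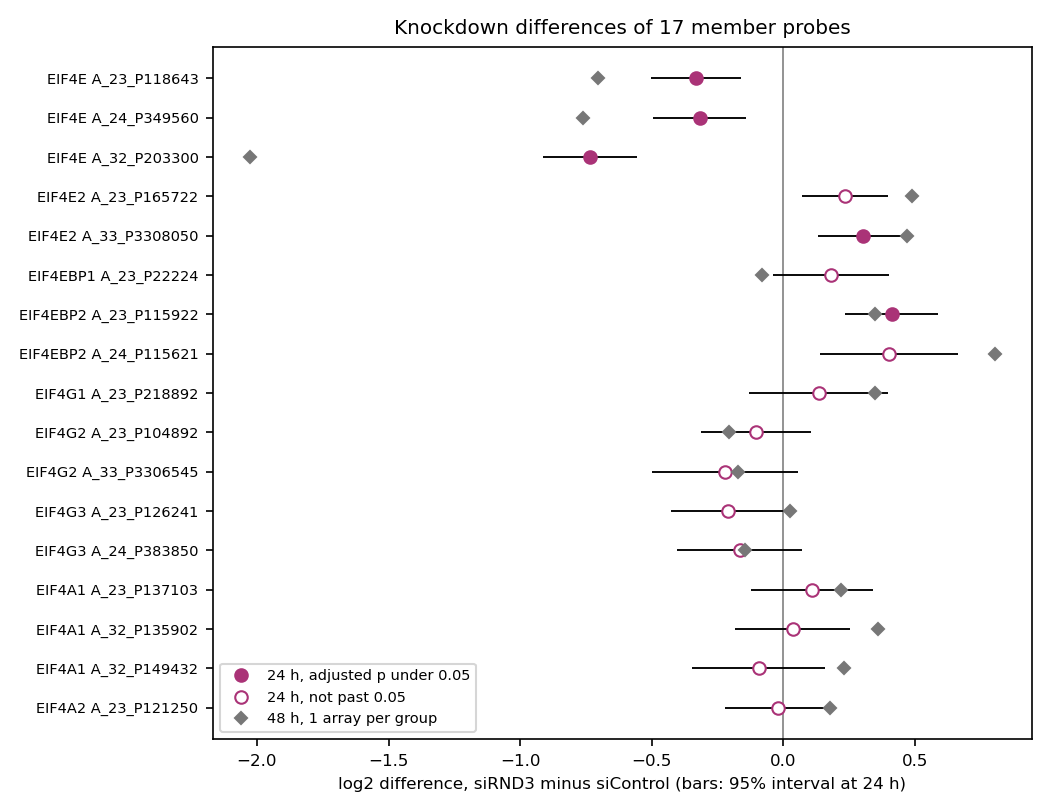
Log2 difference, siRND3 minus siControl (horizontal axis), of the 17 tested member probes, with circles for 24 h (filled where adjusted p was under 0.05), lines for the 95% interval at 24 h and grey diamonds for the single pair of arrays at 48 h. The 3 EIF4E probes are the only ones past the threshold on the left, and the NM_001130679 probe (A_32_P203300) reached -2.03 at 48 h.

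At 48 h there was 1 array per treatment, so differences were read as values, and only the contrast with 24 h was tested, under the assumption that the single arrays varied like those at 24 h. The sign at 24 h was kept at 48 h by all 5 probes that had passed. EIF4E read 11.50 in siControl and 10.79 in siRND3 (A_23_P118643, difference -0.71), and 8.84 and 8.08 (A_24_P349560, difference -0.76). The NM_001130679 probe read 8.82 and 6.80, a difference of -2.03 that left 24.6% of the control level, and it was still well above background. In this probe the knockdown difference was larger at 48 h than at 24 h by -1.29 on the log2 scale (SE 0.15, adjusted p = 0.0219). It was the 1 member probe of 17 to pass that test, which 2.73% of all probes passed, and it missed when any 1 siControl array at 24 h was left out (adjusted p = 0.0723 to 0.0744). The contrasts of the NM_001968 probes were -0.37 (adjusted p = 0.232) and -0.44 (adjusted p = 0.181).

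EIF4E2 read 13.44 and 13.93 at 48 h (A_23_P165722, difference 0.49) and 12.63 and 13.10 (A_33_P3308050, difference 0.47). The EIF4EBP2 probes differed by 0.35 (A_23_P115922) and 0.80 (A_24_P115621), EIF4EBP1 by -0.08 and EIF4G1 by 0.35. All 3 EIF4A1 probes read higher in siRND3 than in siControl at 48 h, by 0.22, 0.36 and 0.23. The contrast with 24 h did not pass for any of these genes. Within the arrays at 48 h, by the same single probes, EIF4EBP2 over EIF4E stood at 0.72 in siControl and 1.77 in siRND3. EIF4E2 over EIF4E stood at 0.38 and 1.56, all relative to siControl at 24 h.

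The change from 24 h to 48 h was then taken within each treatment. In siControl cells 1 of 17 member probes passed, against 3.56% of all probes. This was A_23_P115922 of EIF4EBP2, which rose by 0.60 (adjusted p = 0.0345) to 12.20, above the 3 siRND3 arrays at 24 h. The other EIF4EBP2 probe read 10.53 on that array, a rise of 0.19 (adjusted p = 0.509), so the probes of this gene disagreed in size. EIF4A1 read lower at 48 h in siControl in all 3 probes (differences -0.29, -0.38 and -0.46), without passing.

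In siRND3 cells 5 of 17 passed, against 9.03% of all probes. The 3 EIF4E probes fell by 0.49 (adjusted p = 0.0334), 0.51 (adjusted p = 0.0334) and 1.46 (adjusted p = 0.00236), EIF4E2 (A_33_P3308050) rose by 0.44 (adjusted p = 0.044) and EIF4EBP2 (A_23_P115922) rose by 0.54 (adjusted p = 0.0264). These contrasts share the siRND3 arrays with the knockdown comparison, so they are not separate evidence. In siControl cells the EIF4E probes differed by -0.11, -0.06 and -0.17 over the same interval and did not pass. Without any 1 siControl array at 24 h, 0 probes passed in siControl cells with limma (2 or 3 at an unadjusted p under 0.05) and 1, the NM_001130679 probe, passed in siRND3 cells. Without siRND3 replicate 3, the counts were 0 (4 at an unadjusted p under 0.05) and 2. The share of all probes that passed in these refits is not given here.

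Other genes of the pathway were counted from lists chosen by function, with earlier results of these data known. All genes tested had a median difference of 0.03 at 24 h and 0.06 at 48 h, and the members a median of 0.02 and 0.18. Of the 17 tested partners and repressors of eIF4F, 0 rose and 1 fell, against 7.16% and 9.26% of all genes tested, and their median was 0.08 at 24 h and 0.17 at 48 h. The one that fell was DDX3X, a DEAD-box helicase, which read 9.42, 9.26 and 9.33 in siControl and 8.89, 8.90 and 9.03 in siRND3 (difference -0.39, adjusted p = 0.029). Without siRND3 replicate 3 it still passed, and without any other single array at 24 h it did not. Leaving out one array at a time gave 0 to 1 genes higher (PAIP2, without siRND3 replicate 1) and 0 to 2 lower (PDCD4 and DDX3X, without siRND3 replicate 3).

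The regulators of the complex moved in both directions. Of 17 tested genes of mTORC1 and MNK signalling, 2 rose and 4 fell, where 7.16% of all genes tested rose and 9.26% fell, and the median was 0.07 at 24 h and 0.29 at 48 h. DDIT4 (REDD1), a stress-induced inhibitor of mTORC1, fell by 0.67 (adjusted p = 0.00298), and AKT1S1 (PRAS40), another inhibitor, fell by 0.66 (adjusted p = 0.0209). RHEB, the GTPase that activates mTORC1, fell by 0.53 (adjusted p = 0.016), and the S6 kinase RPS6KB1 fell by 0.46 in one probe (A_24_P497226, adjusted p = 0.0484) and differed by -0.06 in the other. MKNK2, a kinase that phosphorylates eIF4E, rose by 0.36 in one probe (A_23_P142310, adjusted p = 0.0214) and differed by 0.18 in the other (A_24_P929754, adjusted p = 0.538). PDPK1, which activates AKT, rose by 0.39 in 1 of 2 probes (adjusted p = 0.0447). Both inhibitors and activators of mTORC1 were thus among those that fell. Left out one at a time, the 6 arrays gave 0 to 1 genes higher and 1 to 4 lower, and DDIT4 passed each time.

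Of 27 other initiation factors, 1 rose and 3 fell, shares near or below the 7.16% and 9.26% of all genes tested, and the median was 0.01 at 24 h and 0.08 at 48 h. EIF1AX, which helps the ribosome scan for the start codon, fell in each of its 3 probes, all annotated to NM_001412, but by very different amounts. Probe A_24_P237389 read 10.05 ± 0.05 (SD, n = 3) in siControl and 8.05, 7.89 and 8.19 in siRND3 (difference -2.01, adjusted p = 0.000204), while A_33_P3361393 fell by 0.48 and A_33_P3222105 by 0.40. At 48 h the first probe differed by -3.35 and the others by -0.18 and -0.16. EIF3J, a loosely bound subunit of eIF3, read 10.13, 10.03 and 10.19 against 8.75, 8.54 and 8.77 (difference -1.43, adjusted p = 0.000497). EIF3I fell by 0.42 (adjusted p = 0.0206), and EIF3F rose by 0.46 (adjusted p = 0.0122). Leaving out one array at a time gave 0 to 1 genes higher and 2 to 3 lower, with EIF1AX and EIF3J passing each time.

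The last list held 11 genes whose mRNAs are known to depend strongly on eIF4E for their translation. Here their mRNA levels were measured, not their translation. The study had already reported VEGFA and HIF1A as lower after RND3 knockdown, so the counts of this list are a description only. At 24 h 1 of the 11 genes rose and 3 fell, beside 7.16% and 9.26% of all genes tested. The median difference was -0.08 at 24 h and -0.89 at 48 h. FGF2, a growth factor, fell by 1.04 and 0.94 in its 2 probes (adjusted p = 0.0309 and 0.0172), and VEGFA, an angiogenic factor, fell by 0.58 and 0.61 (adjusted p = 0.018 and 0.0153). MYC read 11.37, 11.32 and 11.36 in siControl and 11.07, 11.11 and 11.08 in siRND3, a fall of 0.27 just inside the threshold (adjusted p = 0.0499), with -0.97 at 48 h. BIRC5 (survivin), an inhibitor of apoptosis, rose by 0.31 (adjusted p = 0.0336). ODC1, a polyamine synthesis enzyme, differed by -0.26 without passing (adjusted p = 0.0601). HIF1A, the oxygen-regulated transcription factor, differed by -0.47 and -0.35 in its 2 probes (adjusted p = 0.0749 and 0.0914) and by -1.01 and -1.05 at 48 h. HIF1A was called lower by SAM and without siRND3 replicate 1. Both HIF1A and ODC1 were called lower with normexp background correction, with the deposited log2 values and with all 8 arrays. This made 5, 5 and 4 genes lower in these settings. Over all probes, 4209, 3878 and 4672 passed there, against 3350 in the main test. MYC was not called by SAM, with scaling to the 75th percentile or with normalisation over the 24 h arrays only. It was also not called with the replicate block or with all 8 arrays. FGF2 was not called without the filter on dim probes, and BIRC5 not with the replicate block. Leaving out one array at a time gave 0 genes higher and 0 to 3 lower, and MYC and BIRC5 did not pass in any of these 6 fits.

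**Figure D4:**
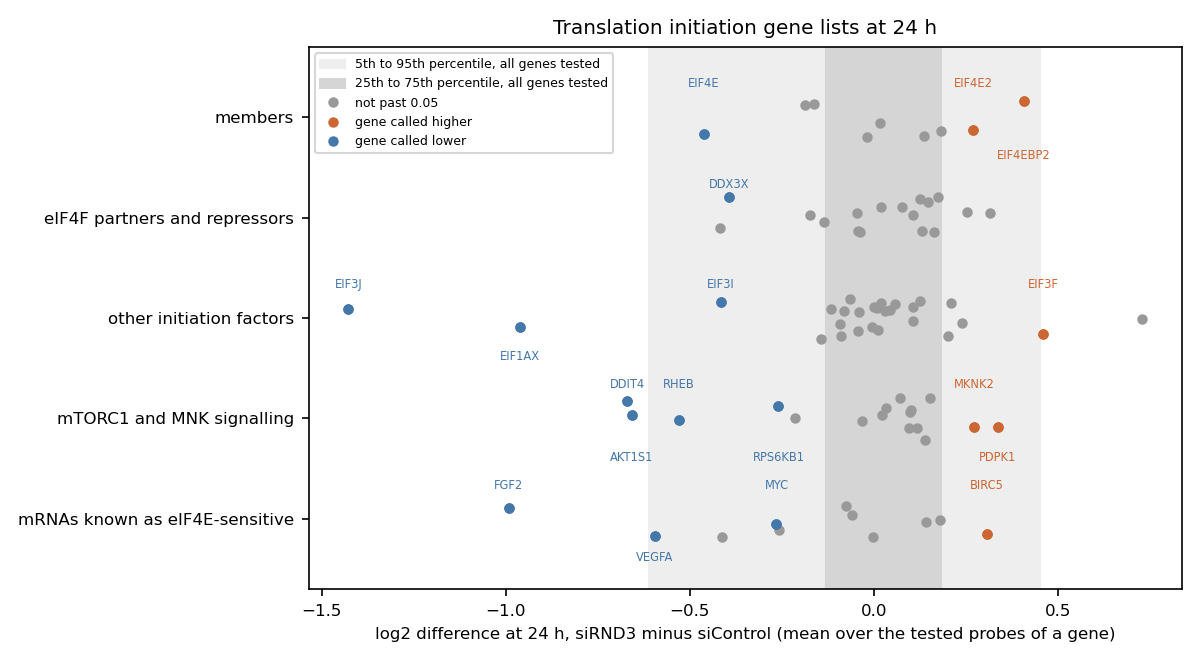
Log2 difference at 24 h, siRND3 minus siControl (horizontal axis, mean over the tested probes of each gene), for the members and 4 gene lists (rows); orange genes had a probe called higher, blue genes a probe called lower, grey genes neither, and the shaded bands are percentiles of all 14805 genes tested. EIF1AX, EIF3J and FGF2 lay furthest to the left, and the grey point furthest to the right is EIF3B, for which 1 probe stood apart on 1 array.

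The genes whose values over the 8 arrays were most like those of a member were named for 1 member per role. The 8 arrays share their treatments and times, and the correlations are a description only. For EIF4E (A_32_P203300) these were SLC26A2, BCAP29 and TRIB1 (Pearson's r of 0.998 each over 8 arrays). For EIF4EBP2 (A_23_P115922) they were TTC39C (0.988), PLAG1 (0.986) and ABCC5 (0.986). For the scaffold EIF4G3 (A_23_P126241) they were ZNF644 (0.967), LRRC37B (0.963) and NCKAP1 (0.951), and for the helicase EIF4A1 (A_23_P137103) CRHBP (0.982), HROB (0.979) and FTO (0.973).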

How the data were processed

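Total RNA of 8 U87 cultures was measured on 1-colour (Cy3) Agilent arrays. Groups, times and replicate numbers came from the deposited labels. Per the file headers, the authors quantified the scans with Agilent Feature Extraction 10.7.3.1, and the processed signal they deposited is a linear intensity corrected for background within its array. Their table of log2 values, also deposited by the authors and quantile-normalised by their methods, served as an alternative.

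Here the processed intensity was put on the log2 scale and quantile-normalised across 8 arrays without 4259 control spots of 62976, spots marked as outliers (0.364% to 0.530% per array) were dropped, and spots of a probe were averaged. A probe was well above background on an array when at least 50% of its spots were so marked (68.3% to 70.7% of probes per array). Probes so marked in 3 of 3 siControl or 3 of 3 siRND3 arrays at 24 h entered the test with limma 3.58.1 in R 4.3.3, with Benjamini-Hochberg adjustment and a threshold of 0.05; 28759 probes were tested and 3350 passed. A gene was called when 1 or more of its probes passed and all that passed had 1 sign. A model with 4 groups gave the contrasts with 48 h. Probes were named through RefSeq (GRCh38.p14, 25422 probes matched). Since the array annotation uses hg19, probes are printed without coordinates. Those of the promoter windows are RefSeq's, on GRCh38.p14. No spot was saturated, and the number of arrays limits the precision. Apart from the ranges and sums of the marker genes, levels were not compared between probes.

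The members and the gene lists were chosen with earlier results of these data known. Every member was named, with RND3, up to 8 list genes past the threshold in each list, and the 3 most alike genes for the member with the lowest adjusted p in each role. The alternatives were other scalings, normexp background correction (offset 50, run on the spot median), the deposited log2 values, other filters, SAM at a false discovery rate of 5%, a block on the replicate number, all 8 arrays, array weights, averaging the probes of each gene and each array at 24 h left out. The code was tested on simulated data.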

Additional observations from a re-analysis of the deposited data

Results flagged for a closer look

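The knockdown difference of EIF4E probe A_32_P203300 (NM_001130679) was larger at 48 h than at 24 h, by -1.29 on the log2 scale (limma contrast over 8 arrays, SE 0.15, adjusted p = 0.0219). The difference was -0.73 at 24 h (3 against 3 arrays) and -2.03 at 48 h (1 against 1). The contrast lay between -1.32 and -1.25 when single arrays at 24 h were left out, with an adjusted p of 0.0723, 0.0723 and 0.0744 without siControl replicate 1, 2 and 3 and of 0.0482, 0.0418 and 0.0470 without siRND3 replicate 1, 2 and 3. It rests on 1 array per treatment at 48 h, and those arrays sit in a slide column of their own.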

How the results depend on the processing

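Of the 17 tested member probes, 5 passed at 24 h, and between 4 and 7 passed under the other scalings, background correction, filters, SAM, array weights and all 8 arrays. The calls over all probes changed between these settings as well. Where 7 member probes passed, 4209 (normexp) and 4672 (all 8 arrays) of 28759 probes passed. Where 4 passed, 2399 of 42405 passed without the filter on dim probes and 3991 of 28733 with SAM. With the probes of each gene averaged, 3 genes passed (EIF4E, EIF4E2 and EIF4EBP2). With the replicate number as a block, 1 probe passed, the NM_001130679 probe of EIF4E, and 1651 of all probes in place of 3350. Same-numbered arrays deviated together only weakly (correlations 0.0020, -0.012 and 0.129, against at most 0.112 between different numbers). Of 6 arrays, 3 correlated best with their own number. These values cannot settle whether the numbers pair the samples, and at 24 h the numbers equal the slide column. Leaving out one array at a time gave 1 to 4 member probes, and 1379 to 2574 of all probes; it was 1 without any siControl replicate and 4, 3 and 2 without siRND3 replicate 1, 2 and 3. On the same terms the contrast of 48 h with 24 h gave 0 to 1, the change with time in siControl 0 to 1 and that in siRND3 1 to 4 (main value 5). For these contrasts the counts over all probes are not given here, so these changes cannot be set beside those of all probes. The contrast at 0 had 1 or 2 member probes at an unadjusted p under 0.05. Signs turned for EIF4A2 and EIF4A1, both near 0: EIF4A2 (A_23_P121250) stood at 0.015 with 75th percentile scaling, 0.030 with all 8 arrays, and -0.069 to 0.013 with arrays left out; EIF4A1 (A_32_P135902) at -0.0038 to 0.11 with arrays left out. Over all single member probes and settings, 232 values kept direction and side of the threshold, 25 lost and 7 gained a call, and 8 turned. The causes were not tested.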

Other observations

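EIF3B, the subunit at the core of eIF3, was read by a pair of probes annotated to the same transcript. Probe A_33_P3239222 read 16.58 on siRND3 replicate 1 at 24 h, against 13.72 and 13.63 on the other siRND3 arrays and 13.37 to 13.41 in siControl, while A_23_P157072 read 13.48 on that array. PDCD4, which binds eIF4A and blocks it, read 7.10, 6.99 and 7.10 in siControl and 6.58, 6.51 and 6.84 in siRND3, a difference of -0.42 just outside the threshold (adjusted p = 0.0517), with -1.18 at 48 h. PDCD4 was called lower by SAM, with scaling to the 75th percentile, normexp, the deposited log2 values, the filter on all arrays at 24 h, all 8 arrays, array weights and without siRND3 replicate 3. PAIP2, which binds the poly(A)-binding protein, differed by 0.32 (adjusted p = 0.0834) and by 0.54 at 48 h. The endothelial marker PECAM1, chosen as a marker of another cell type, fell in 1 of its probes (A_23_P252471, difference -0.99, adjusted p = 0.0216), and the U87 marker CD44, a surface receptor for hyaluronan, fell by 0.58 (adjusted p = 0.00721), with -2.12 at 48 h. The study had already reported CD44 as lower after RND3 knockdown. Of the 7 U87 markers 1 fell, and of the 5 tested markers of other cell types 1 fell. The duplicate spots of EIF4A1 probe A_32_P149432 differed on some arrays, with an SD between spots of up to 0.431.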
